A study of Sus scrofa with 5 samples.

Results

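The genes described here are 10 components of fibroblast growth factor (FGF) signalling, namely the ligand *FGF4*, the 4 receptors *FGFR1*, *FGFR2*, *FGFR3* and *FGFR4*, the transcription factors *ETV4* and *ETV5*, and the feedback inhibitors *SPRY2*, *SPRY4* and *DUSP6*. They were chosen by name from 30029 genes in the count tables. The rule used none of their values, but earlier results of these data were known when they were chosen. Of the 10 genes, 9 had enough counts for the tests between cell groups, and *FGF4* did not. They were measured in porcine blastoids, which are blastocyst-like structures grown from porcine embryonic stem cells (pESCs), and in pESCs themselves.

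FGF ligands bind tyrosine kinase receptors with the help of heparan sulfate proteoglycans, and the activated receptors signal through RAS, RAF, MEK and ERK to the nucleus. ERK activity induces ETS-family transcription factors such as *ETV4* and *ETV5*, and it also induces its own inhibitors. Sprouty proteins, encoded by *SPRY2* and *SPRY4*, restrain the pathway upstream of ERK, and *DUSP6* encodes a cytoplasmic phosphatase that removes the activating phosphates from ERK. Levels of these induced transcripts are widely used as a readout of pathway activity, although they measure RNA and not signalling. In the mouse blastocyst, *Fgf4* made by epiblast cells acts on *Fgfr1* and *Fgfr2* in the neighbouring lineages.

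The blastoid data are 2 single-cell RNA-seq libraries of day 6 blastoids in iBlastoid medium, which contains bFGF, LIF, activin A, IGF1, BMP4, CHIR99021 and SB431542 among other factors. The bulk data are 3 RNA-seq libraries of pESCs cultured in 4FIXY, a medium with activin A, IGF1, IL-6, its soluble receptor, XAV939 and IWR1, for which the methods list no added FGF, on mouse feeder cells. The methods give parthenogenetic blastocysts as the origin of the pESCs, and blastoids with a visible cavity were picked by hand. Nothing in the labels says whether the 2 blastoid libraries came from separate cultures, so p-values measure only the spread between these libraries, which may be technical.

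Cells were grouped by 1 gene each, without clustering. A cell entered the *POU5F1* or *TP63* gate with at least 3 UMIs and 100 CPM of that gene (CPM, the UMIs of a gene per 1000000 UMIs of the cell), and the *CRABP1*, *GABRP* or *COL3A1* gate with at least 3 UMIs and 500 CPM. Of 15544 cells, 2377 (15.3%) passed the *POU5F1* gate alone, 615 (3.96%) the *CRABP1* gate, 1124 (7.23%) the *GABRP* gate, 2587 (16.6%) the *TP63* gate and 872 (5.61%) the *COL3A1* gate. A further 1199 cells passed several gates, of which most passed *TP63* and *GABRP*, and 6770 (43.6%) passed none. The gates are called by their genes. Of the markers of the cells each could hold, *DNMT3B* and *UTF1* were highest in the *POU5F1* gate, *SIX3* and *PAX6* in the *CRABP1* gate, *VTCN1* in the *GABRP* gate, and *COL1A1*, *TWIST1* and *LUM* in the *COL3A1* gate. Markers of other cells peaked in these gates too. The hypoblast markers *GATA6* and *GATA4* were highest in *COL3A1*, at 215 and 77.0 CPM against 13.3 and 3.95 in the next gate, while the means of *SOX17* and *FOXA2* stayed below 1 CPM in all gates. The neural crest markers *SOX10*, *FOXD3* and *SCRG1* were highest in *CRABP1* and the other marker of that list, *ERBB3*, in *POU5F1* (113 CPM against 94.9 in the next gate), *THY1* of the mesenchyme list in *GABRP*, *OTX2* of the neural list in *POU5F1*, *TFAP2A* of the amnion list in *TP63*, and *SOX2* was about level in *CRABP1* and the next gate, at 83.3 and 81.3 CPM. Of the trophectoderm markers, *KRT8* (9289 CPM against 4780 in the next gate), *GATA3* (194 against 133) and *ELF5* (178 against 130) were highest in *GABRP*, *CDX2* in *COL3A1*, *GATA2* in *TP63* and *TFAP2C* in *POU5F1*. In the *TP63* gate the epidermal keratin genes *KRT5* and *KRT15* reached only 0.218 and 0.638 CPM.

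The sequences before the starts of 4 induced members are shown because these are genes that ERK signalling is known to switch on. The windows are the 250 bases before the annotated start of each gene in RefSeq's annotation of Sscrofa11.1 (susScr11), read on the gene's strand. *ETV5* lies on chromosome 13 from 123873346 to 123930292 (minus strand), *SPRY4* on chromosome 2 from 143877334 to 143891280 (minus), *SPRY2* on chromosome 11 from 52153695 to 52158766 (minus) and *DUSP6* on chromosome 5 from 93303058 to 93307510 (plus). Capitals mark the letters TGAATGAA or TGAATGGA on either strand, the forms bound by Capicua, a repressor of *ETV* genes that ERK signalling inactivates, and in *ETV5* also the AP-1 motif TGANTCA.
ETV5, chr13:123930293-123930542, minus: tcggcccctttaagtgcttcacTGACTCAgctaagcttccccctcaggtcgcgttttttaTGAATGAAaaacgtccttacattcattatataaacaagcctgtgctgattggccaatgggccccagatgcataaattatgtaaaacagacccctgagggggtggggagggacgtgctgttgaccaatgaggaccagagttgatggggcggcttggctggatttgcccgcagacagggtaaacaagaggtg
SPRY4, chr2:143891281-143891530, minus: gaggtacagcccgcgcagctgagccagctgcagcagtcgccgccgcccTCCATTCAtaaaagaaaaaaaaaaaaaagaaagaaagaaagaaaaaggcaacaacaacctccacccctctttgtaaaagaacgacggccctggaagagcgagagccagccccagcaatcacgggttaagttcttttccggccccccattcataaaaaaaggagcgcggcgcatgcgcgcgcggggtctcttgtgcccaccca
SPRY2, chr11:52158767-52159016, minus: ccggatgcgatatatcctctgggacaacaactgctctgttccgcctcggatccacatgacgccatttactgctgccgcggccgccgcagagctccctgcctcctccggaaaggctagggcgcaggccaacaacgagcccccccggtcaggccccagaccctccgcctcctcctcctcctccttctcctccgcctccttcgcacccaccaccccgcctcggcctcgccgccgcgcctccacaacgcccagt
DUSP6, chr5:93302808-93303057, plus: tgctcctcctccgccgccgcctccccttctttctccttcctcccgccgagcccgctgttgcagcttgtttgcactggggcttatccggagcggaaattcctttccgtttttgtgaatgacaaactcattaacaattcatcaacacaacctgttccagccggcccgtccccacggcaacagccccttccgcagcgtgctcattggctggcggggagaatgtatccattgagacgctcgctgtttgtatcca

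*ETV5* held TGAATGAA with its first letter 190 bases before the start, beside the AP-1 motif at 228 bases, and *SPRY4* held TGAATGGA at 202 bases. Neither form was found in the windows shown for *SPRY2* and *DUSP6*. Of 19556 windows of the same length, 1.20% held TGAATGAA, 0.701% TGAATGGA and 1.86% either form, and 5.27% held the AP-1 motif. The Capicua forms were searched after these windows had been read. The ETS motif CCGGAAGT (2.87% of windows), the CRE motif TGACGTCA (1.70%) and the octamer ATTTGCAT (1.24%) were found in none of the 4 windows shown. A match of letters is a description and not a binding site.

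Depth was similar in the libraries and differed between gates. Cells had a median of 29728 UMIs in library 1 and 27588 in library 2, and gate medians ran from 38270 and 34799.5 UMIs in the *POU5F1* gate to 22188 and 19398 in the *COL3A1* gate. The libraries shared 9 cell barcodes, 0.122% of the cells of library 1. RNA outside cells was read from barcodes with 10 to 100 UMIs, called empty droplets below. Their CPM, called background, is a share of the UMIs of these barcodes. It is not the amount that such RNA adds to a cell. A gate below it is thus not shown to lack the gene. This background rests on few UMIs for the rarer genes, and barcodes with over 100 and up to 500 UMIs were read as an alternative. Counts were summed per library and gate, which gave 10 sums. CPM of different genes are not compared, since UMI counts also depend on the length and sequence of a transcript. Log2 fold changes are edgeR estimates with their SE, and a gene is said to be higher or lower where its adjusted p was below 0.05 over all genes tested. In such sums, fewer cells with a transcript and less of it in each cell cannot be told apart.

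Among the receptors, *FGFR1* was highest in the *POU5F1* and *CRABP1* gates and *FGFR2* in the *COL3A1* and *TP63* gates. *FGFR1* lies on chromosome 15 from 48053895 to 48106634, with 20 exons in its transcript. In libraries 1 and 2, it was at 146 and 140 CPM in the *POU5F1* gate, 146 and 143 in *CRABP1*, 116 and 108 in *COL3A1*, 64.4 and 61.1 in *TP63*, and 29.2 and 26.0 in *GABRP*. The *GABRP* gate lay below the empty droplets, which had 42.1 and 38.0 CPM, and its libraries did not overlap those of any other gate. *FGFR1* was 3.29-fold lower in the *GABRP* gate than the mean of the other gates (log2 fold change -1.72 ± 0.06, adjusted p = 1.1e-10). The *POU5F1* and *CRABP1* gates did not differ beyond their spread (0.07 ± 0.06, adjusted p = 0.39). *CRABP1* and *COL3A1* differed by 0.16 ± 0.07 (adjusted p = 0.063), which passed the threshold with the library as a block (0.17, adjusted p = 0.019). It was 0.37 (adjusted p = 5.7e-04) with total UMIs only, and 0.24 with library 2 alone. *POU5F1* and *COL3A1* differed by 0.23 ± 0.06 (adjusted p = 0.0062), which fell to 0.15 (adjusted p = 0.058) with gate thresholds divided by 2.

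*FGFR2* lies on chromosome 14 from 131183095 to 131285001 on the minus strand. Its levels were 265 and 231 CPM in the *COL3A1* gate, 178 and 163 in *TP63*, 108 and 99.5 in *GABRP*, 95.3 and 93.0 in *POU5F1*, and 79.4 and 76.8 in *CRABP1*. The gates with the highest *FGFR1*, *CRABP1* and *POU5F1*, were thus the lowest for *FGFR2*. Each gate differed from its neighbour in this order, from 0.36 ± 0.08 on the log2 scale between *POU5F1* and *CRABP1* (adjusted p = 0.0020) to 0.58 ± 0.07 between *COL3A1* and *TP63* (adjusted p = 1.1e-05). The step between *GABRP* and *POU5F1*, 0.44 ± 0.07, fell to 0.14 when sums were scaled by total UMIs only (adjusted p = 0.11). The step between *TP63* and *GABRP*, 0.50 ± 0.07, fell to 0.18 (adjusted p = 0.11) when cells past both gates were counted in each. All gates lay above the 68.3 and 53.7 CPM of the empty droplets.

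*FGFR3* (chromosome 8, 879151 to 894968) followed *FGFR1* in the *POU5F1* and *CRABP1* gates and departed from it in *COL3A1*. It was at 36.9 and 34.1 CPM in *POU5F1*, 34.0 and 29.5 in *CRABP1*, 18.8 and 18.2 in *TP63*, 11.1 and 9.37 in *GABRP*, and 6.69 and 4.53 in *COL3A1*. The *COL3A1* gate was 3.57-fold lower than the mean of the others (-1.84 ± 0.13, adjusted p = 9.5e-08), and below the empty droplets at 18.3 and 15.8 CPM. *POU5F1* and *CRABP1* differed by 0.26 ± 0.11 (adjusted p = 0.066, and 0.25 with adjusted p = 0.017 with the library as a block). *FGFR4* (chromosome 2, 80841536 to 80853791, minus strand) was the receptor with the fewest UMIs, 441 over all gates. Only the *POU5F1* gate, at 3.12 and 4.50 CPM, lay above the empty droplets, which had 1.22 and 1.28 CPM from 2 and 3 UMIs. With barcodes of over 100 UMIs the background was 0.488 and 2.37 CPM, and the *CRABP1* gate (1.06 and 1.15 CPM) lay above it in library 1. *FGFR4* was 7.49-fold higher in *POU5F1* than the mean of the other gates (2.91 ± 0.23, adjusted p = 4.1e-07). The other gates had between 0.126 and 1.15 CPM, and none of the neighbours among them passed the threshold. *COL3A1* and *TP63* differed by 1.27 ± 0.53 (adjusted p = 0.062), and *TP63* against *COL3A1* was called with the library as a block (-1.28, adjusted p = 0.043). That difference was -0.53 with library 1 alone and -1.94 with library 2 alone.

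**Figure D1:**
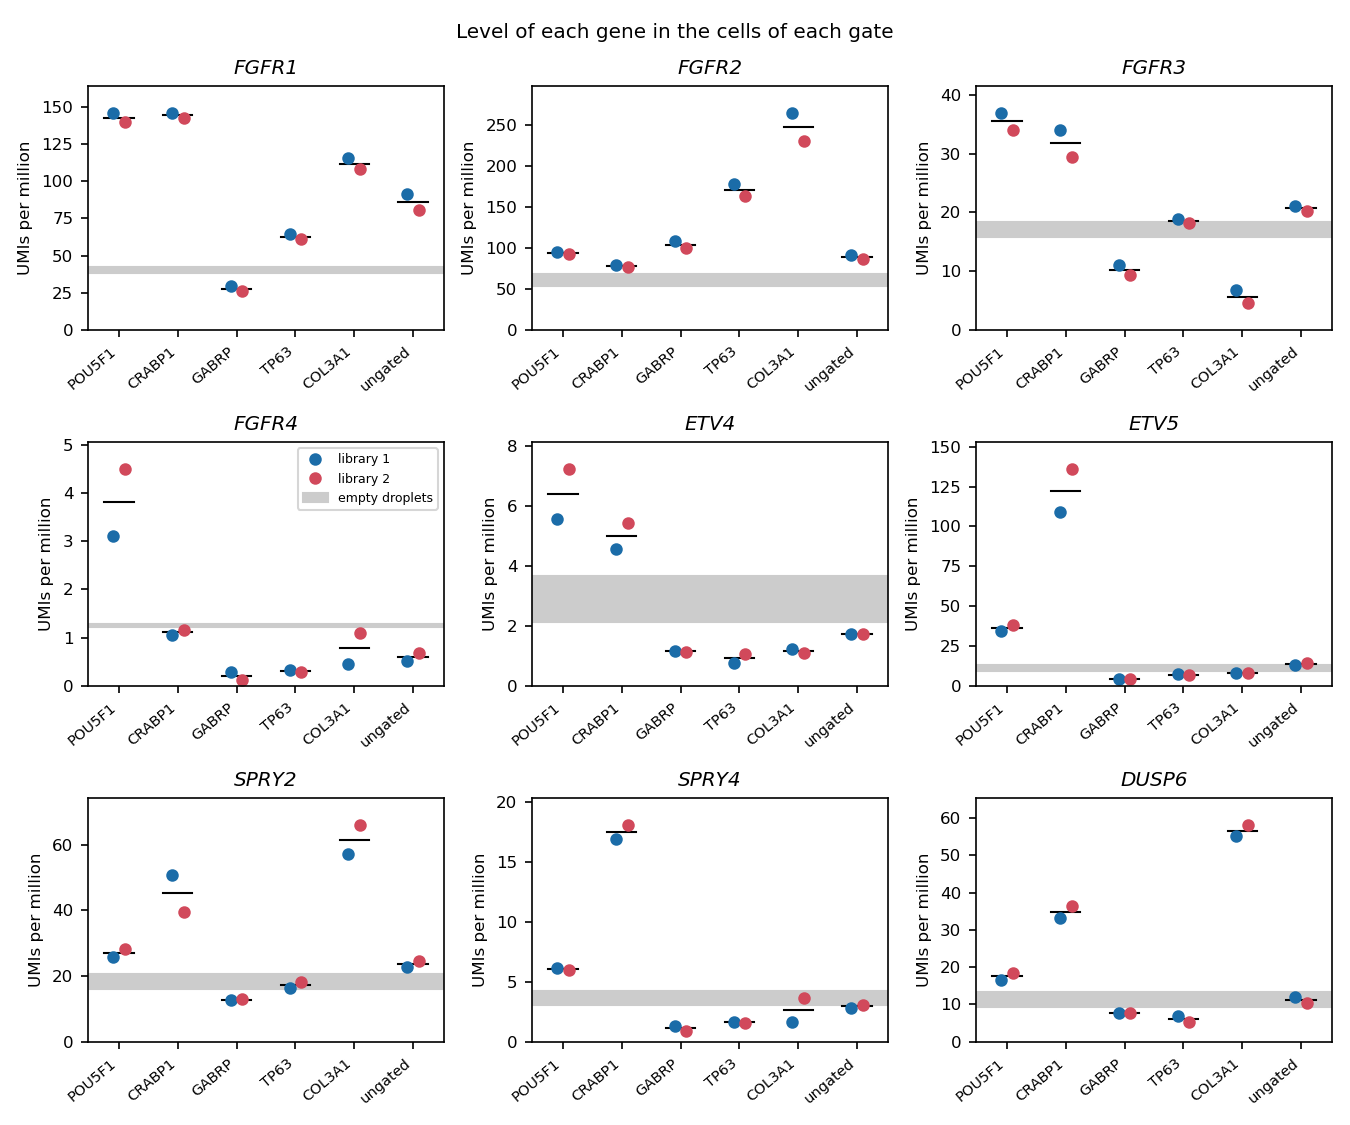
Level of 9 genes in CPM (vertical axes, from 0, different for each gene) in the cells of 5 gates and in cells past no gate. Points are the 2 libraries, black lines their mean, and the grey band spans the level in the empty droplets of the 2 libraries. *FGFR1* is lowest in the *GABRP* gate, *ETV5* and *SPRY4* are highest in *CRABP1*, and *SPRY2* and *DUSP6* are highest in *COL3A1*.

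The receptor make-up of each gate followed from these levels. *FGFR1* gave 51.9% and 51.5% of all receptor UMIs in the *POU5F1* gate and 56.1% and 57.1% in *CRABP1*, against 19.7% and 19.3% in *GABRP*, 24.6% and 25.2% in *TP63*, and 29.8% and 31.3% in *COL3A1*. *FGFR2* gave 72.6% and 73.7% in *GABRP* and 30.5% and 30.6% in *CRABP1*. The libraries differed by at most 1.5 percentage points for *FGFR1*, and the gates by far more. The sum of the 4 receptors was lowest in *GABRP*, at 148 and 135 CPM, and highest in *COL3A1*, at 388 and 345 CPM. These are shares of UMIs and not of molecules, since the receptors can differ in how well they are captured.

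**Figure D2:**
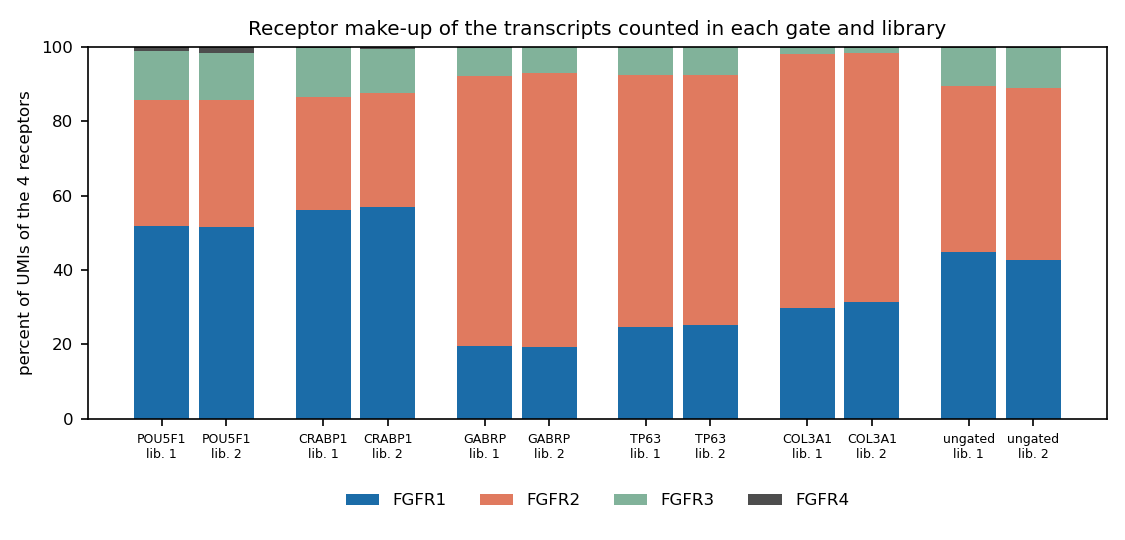
Percent of the UMIs of the 4 FGF receptors that came from each receptor (vertical axis, stacked to 100), for each gate and library. *FGFR1* takes 51.5% to 57.1% in the *POU5F1* and *CRABP1* gates and 19.3% to 31.3% in the *GABRP*, *TP63* and *COL3A1* gates.

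*FGF4*, the ligand of the early epiblast, was scarcely detected in the blastoids. It lies on chromosome 2 from 3527113 to 3529011. Over all cells, 10 UMIs were counted in library 1 and 31 in library 2, of which 6 and 23 were in the *POU5F1* gate (0.159 and 0.403 CPM). The empty droplets had none, which allows up to 1.83 and 1.28 CPM. Barcodes of over 100 UMIs had 0.0813 and 0.254 CPM from 1 and 3 UMIs, too few to compare the gate with RNA outside cells. Among the other gates, 1 UMI was counted in the *TP63* gate of library 2 (0.0256 CPM), and none in that of library 1, which allows up to 0.0644 CPM. Both values lay below those of the *POU5F1* gate in the same libraries. The *GABRP* and *COL3A1* gates had none, which allows up to 0.167 and 0.189 CPM in *GABRP* and 0.231 and 0.368 in *COL3A1*. The *CRABP1* gate had none in either library, which allows up to 0.456 and 0.314 CPM, so a level like that of the *POU5F1* gate could not have been seen there in library 1, and in library 2 the limit lay below the 0.403 CPM of the *POU5F1* gate. Within the *POU5F1* gate, 5 and 21 of the UMIs were in cells high in *DNMT3B*. *FGF4* was left out of the tests for its low counts.

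*ETV5* was the member with the largest differences between gates. It was at 109 and 136 CPM in the *CRABP1* gate, 34.2 and 38.2 in *POU5F1*, 7.85 and 7.84 in *COL3A1*, 7.10 and 6.94 in *TP63*, and 4.44 and 4.28 in *GABRP*. The last 3 gates lay below the empty droplets at 9.15 and 13.2 CPM. *ETV5* was 11.0-fold higher in *CRABP1* than the mean of the others (3.46 ± 0.09, adjusted p = 1.2e-11), and 3.20-fold higher there than in *POU5F1* (adjusted p = 5.8e-08). *COL3A1* and *TP63* did not differ beyond their spread (0.20 ± 0.17, adjusted p = 0.35).

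*ETV4*, its close relative, on chromosome 12 from 19531507 to 19548303 (plus strand), had a different leading gate. Its levels were 5.55 and 7.22 CPM in *POU5F1*, 4.56 and 5.44 in *CRABP1*, 1.23 and 1.10 in *COL3A1*, 1.17 and 1.13 in *GABRP*, and 0.772 and 1.07 in *TP63*. The *POU5F1* and *CRABP1* gates stood above the empty droplets (3.66 and 2.13 CPM from 6 and 5 UMIs) and the other 3 below. With barcodes of over 100 UMIs the background was 5.85 and 5.33 CPM, and *POU5F1* and *CRABP1* lay below it in library 1 and above it in library 2. *ETV4* was 3.77-fold higher in *POU5F1* than the mean of the others (1.91 ± 0.15, adjusted p = 3.6e-07) and 2.59-fold higher in *CRABP1* (1.37 ± 0.22, adjusted p = 2.0e-04). The libraries of *POU5F1* and *CRABP1* did not overlap, and the difference of 0.43 ± 0.21 missed the threshold (adjusted p = 0.12), but passed it with the library as a block (0.44, adjusted p = 0.048) and with gate thresholds multiplied by 2 (1.11, adjusted p = 0.0028). No pair among the *COL3A1*, *GABRP* and *TP63* gates passed it.

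The feedback inhibitors fell into different orders. *SPRY4* followed *ETV5*, with 16.9 and 18.1 CPM in the *CRABP1* gate, 6.19 and 5.99 in *POU5F1*, 1.69 and 3.68 in *COL3A1*, 1.65 and 1.59 in *TP63*, and 1.33 and 0.881 in *GABRP*. It was 6.59-fold higher in *CRABP1* than the mean of the others (2.72 ± 0.17, adjusted p = 4.9e-08), and the *COL3A1*, *TP63* and *GABRP* gates lay below the empty droplets at 3.05 and 4.27 CPM. In *COL3A1* the libraries differed most, and its fold change against the mean of the others (-0.53 ± 0.25, adjusted p = 0.090) was -1.16 with library 1 alone and 0.07 with library 2 alone. It was called lower in 3 alternatives, without the filter on low counts (-0.55, adjusted p = 0.033), with gate thresholds divided by 2 (-0.59, adjusted p = 0.025) and with cells past several gates counted in each (-0.60, adjusted p = 0.040).

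*SPRY2* was instead highest in the *COL3A1* gate. It had 57.1 and 66.0 CPM there, 50.9 and 39.5 in *CRABP1*, 25.9 and 28.2 in *POU5F1*, 16.4 and 18.3 in *TP63*, and 12.7 and 13.0 in *GABRP*. It was 2.78-fold higher in *COL3A1* (1.47 ± 0.09, adjusted p = 1.2e-08) and 1.56-fold higher in *CRABP1* (0.64 ± 0.10, adjusted p = 1.2e-04) than the mean of the other gates. The empty droplets had 20.7 and 16.2 CPM, above both libraries of *GABRP*. *TP63* and *GABRP* differed by 0.22 ± 0.12 (adjusted p = 0.17), and *GABRP* was lower by 0.44 with total UMIs only (adjusted p = 0.012).

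*DUSP6* had the same leading gate as *SPRY2*. It was at 55.1 and 58.1 CPM in *COL3A1*, 33.3 and 36.5 in *CRABP1*, 16.6 and 18.4 in *POU5F1*, 7.67 and 7.74 in *GABRP*, and 6.82 and 5.25 in *TP63*, against 13.4 and 9.38 CPM in the empty droplets. No gate's libraries overlapped those of another. *DUSP6* was 4.48-fold higher in *COL3A1* than the mean of the others (2.16 ± 0.08, adjusted p = 2.7e-10) and 3.75-fold lower in *TP63* (-1.91 ± 0.10, adjusted p = 1.3e-08). The neighbours *GABRP* and *TP63* differed by 0.56 ± 0.14 (adjusted p = 0.0068), which was 0.34 (adjusted p = 0.057) when sums were scaled by total UMIs only and 0.33 (adjusted p = 0.10) with gate thresholds divided by 2.

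The share of cells with at least 1 UMI was compared after each cell had been thinned to 9805 UMIs, so that depth was equal. No gate is known to lack these genes, so the lowest gate is given beside each share. *ETV5* was detected in 57.6% and 60.5% of cells in the *CRABP1* gate and in 2.48% and 3.21% in *GABRP*. Without thinning these shares were 79.0% and 79.0%, and 10.1% and 6.79%, at median depths of 24328 and 21985 UMIs, and 26425.5 and 23385.5 UMIs. *FGFR2* was detected in 82.8% and 77.9% of thinned cells in *COL3A1* and 41.2% and 46.7% in *CRABP1*. *FGFR1* was detected in 64.3% and 65.3% in *CRABP1* and 17.6% and 16.4% in *GABRP*. Such a share also falls with the level per cell, so these shares do not show which of the 2 differed.

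Taken gate by gate against the mean of the other gates, 6 of the 9 tested members were higher in *POU5F1* and 1 was lower, where 27.9% and 29.4% of all 17091 genes were higher and lower. In *CRABP1*, 7 members were higher and 1, *FGFR2*, was lower, against 22.0% and 23.2% of all genes. In *GABRP*, none was higher and 8 were lower, against 30.6% and 27.0%, and the same counts were found at an unadjusted p below 0.05 and by DESeq2. *FGFR4* there went from -1.97 to -0.93 and lost its call with gate thresholds divided by 2 (adjusted p = 0.065). In *TP63*, 1 was higher, *FGFR2*, and 7 were lower, against 23.8% and 21.4%. In *COL3A1*, 4 were higher and 3 lower, against 27.4% and 27.1%. The median log2 fold change of the members was 0.92 in *POU5F1*, 0.95 in *CRABP1*, -1.21 in *GABRP*, -1.36 in *TP63* and 0.04 in *COL3A1*, where that of all genes lay between -0.03 and 0.01. The levels of 8 members in *GABRP* and of 5 in *TP63* and in *COL3A1* lay below those of the empty droplets in both libraries (8, 7 and 4 with barcodes of over 100 UMIs). This compares shares of UMIs and does not show that the cells of these gates lack the genes. *FGFR3* in *TP63* (0.20 ± 0.08, adjusted p = 0.064) was called with the library as a block (0.20, adjusted p = 0.016) and with doublets removed (0.33, adjusted p = 0.014), and was 0.36 with library 2 alone. These 5 comparisons share their sums, so they are not independent of each other.

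**Figure D3:**
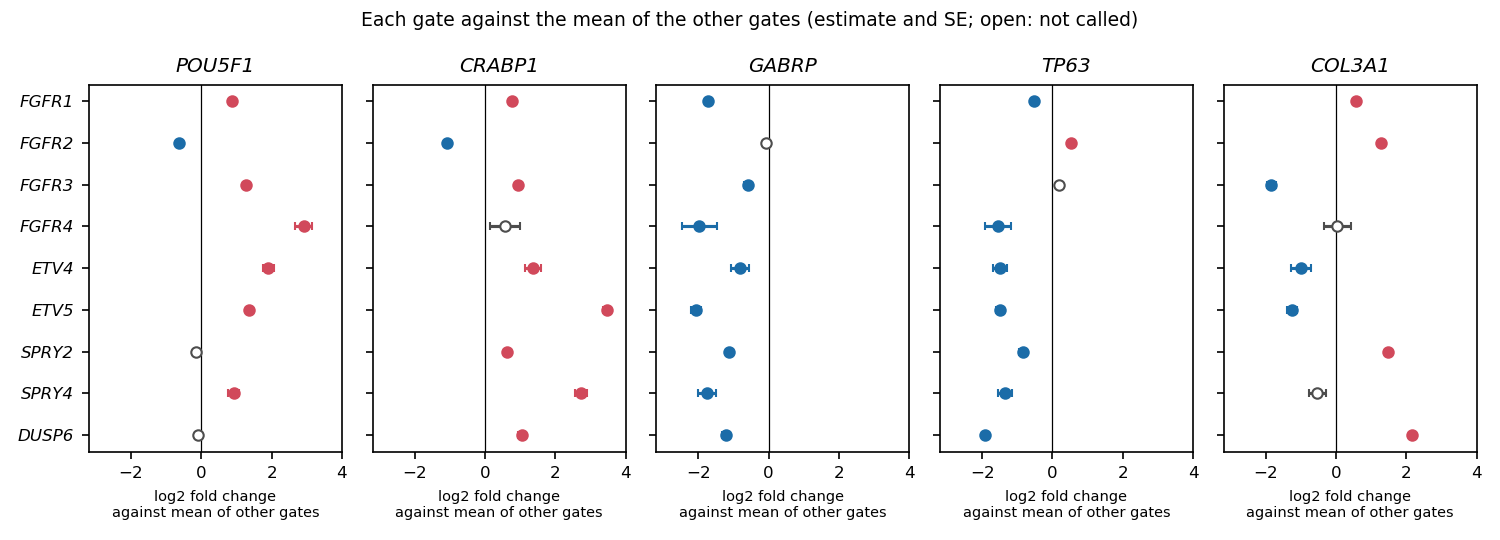
Log2 fold change of each gene (horizontal axes) in each gate against the mean of the other gates, as edgeR estimate with SE. Red is higher, blue lower and open grey not called at an adjusted p of 0.05. In *GABRP* 8 of 9 genes are lower, and *FGFR2* is opposite to *FGFR1* in the *POU5F1*, *CRABP1* and *TP63* gates.

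Scaling mattered for the split of all genes. With total UMIs only, the median log2 fold change of all genes moved by 0.21 in *CRABP1* and by -0.27 in *GABRP*, and the share of calls that were higher went from 48.7% to 75.2% in *CRABP1*, from 53.1% to 28.6% in *GABRP* and from 48.7% to 61.1% in *POU5F1*. No member that was called in these 3 gates changed its direction. *FGFR2* in *GABRP*, which was not called (-0.09 ± 0.06, adjusted p = 0.20), was -0.36 under that scaling (adjusted p = 1.7e-04). It was 0.25 (adjusted p = 0.0049) when cells past several gates were counted in each of them.

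Between pairs of gates, 75 of 90 member values were called. In the comparisons of *POU5F1*, the share of all genes called was 45.8% against *CRABP1*, 60.1% against *GABRP*, 54.7% against *TP63* and 58.3% against *COL3A1*. For *CRABP1* it was 57.0% against *GABRP*, 45.4% against *TP63* and 44.1% against *COL3A1*. It was 41.6% for *GABRP* against *TP63*, 57.3% for *GABRP* against *COL3A1* and 54.0% for *TP63* against *COL3A1*. The members were called least often in *GABRP* against *TP63*, in *TP63* against *COL3A1* (5 of 9 each) and in *POU5F1* against *CRABP1* (6 of 9).

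Cells of the *POU5F1* gate were split by *DNMT3B*, a de novo DNA methyltransferase of the epiblast. High cells had at least 3 UMIs and 100 CPM of it. There were 938 cells high and 1439 low in *DNMT3B*. Members were higher in the *DNMT3B*-high cells in 8 of 9 cases and lower in none, where 32.7% of 16446 genes were called in either direction. No member was lower at an unadjusted p below 0.05 or by DESeq2. *DUSP6* was at 30.1 and 29.1 CPM in the high cells and 8.29 and 8.86 in the low cells (1.72 ± 0.10, 3.28-fold, adjusted p = 6.3e-10). The low cells lay below the empty droplets for this gene, which had 13.4 and 9.38 CPM. *ETV5* was at 57.9 and 57.5 CPM against 19.6 and 21.1 (1.43 ± 0.09, adjusted p = 2.3e-09), and *ETV4* at 10.3 and 12.0 CPM against 2.65 and 2.94 (1.93 ± 0.19, adjusted p = 5.6e-07). For all 3, both libraries of the high cells lay above both of the low cells.

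*FGFR4* showed the largest fold change of the receptors in this split. It was at 5.96 and 8.24 CPM in the high cells and 1.37 and 1.19 in the low cells (2.43 ± 0.28, 5.39-fold, adjusted p = 3.4e-06). The low cells were thus near the level of the empty droplets. *FGFR1* was at 189 and 166 CPM against 119 and 117 (0.52 ± 0.07, adjusted p = 2.1e-05), *FGFR2* differed by 0.26 ± 0.09 (adjusted p = 0.034), and *FGFR3* by 0.18 ± 0.11 (adjusted p = 0.21). The Sprouty genes differed by less than *DUSP6*, with 0.75 ± 0.23 for *SPRY4* (adjusted p = 0.016) and 0.51 ± 0.09 for *SPRY2* (adjusted p = 3.8e-04).

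Depth and other markers moved with this split. The high cells had medians of 44686 and 38771 UMIs, the low cells 35771 and 31820.5. The minimum of 3 UMIs is harder to reach in shallow cells, so the difference in depth can in part be set by the split. Of 6 pluripotency markers, 5 were higher in the high cells, *DNMT3B* itself among them, and the summed level of all 6 was 1204 and 1322 CPM against 498 and 486. This sum holds *DNMT3B*, which made the split, and the gate gene *POU5F1*, so its rise was partly set by the split. Of the others, *SOX2* (1.24 ± 0.07), *NANOG* (2.08 ± 0.24) and *UTF1* (0.57 ± 0.08) were higher, and *LIN28A* was not called (-0.15 ± 0.12). Of 6 trophectoderm markers, 5 were lower, with 2902 and 2698 CPM in sum against 5045 and 4861. *GATA3* was lower by 1.77 ± 0.07 on the log2 scale (adjusted p = 1.7e-11), and no marker of either list was at 0. Amnion markers summed to 161 and 167 CPM in the high cells against 304 and 303, surface ectoderm markers to 96.8 and 94.9 against 254 and 251, and neural markers to 270 and 280 against 153 and 165. *TFAP2A*, which is in both the amnion and the surface ectoderm list, was lower (-1.53 ± 0.08), as was *ISL1* (-0.75 ± 0.12). *GABRP* was higher (0.56 ± 0.13), and *VTCN1*, *IGFBP3* and *TP63* were not called. Of the neural list, *SOX2*, also counted as a pluripotency marker, and *OTX2* (0.80 ± 0.11) were higher. *SIX3*, *PAX6* and *CRABP1* were not called. Cells above the mitochondrial limit numbered 18 of 300 and 26 of 638 in the high cells and 12 of 587 and 17 of 852 in the low cells, and those removed as doublets in an alternative 27 and 62 against 22 and 42. All 8 members were still called higher without the cells above the mitochondrial limit, and without the doublets. The part of depth and of these markers in the member differences was not tested. After thinning to equal depth, *DUSP6* was detected in 25.3% and 22.7% of high cells and 6.30% and 7.51% of low cells, and *ETV5* in 41.3% and 39.8% against 13.5% and 15.4%.

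**Figure D4:**
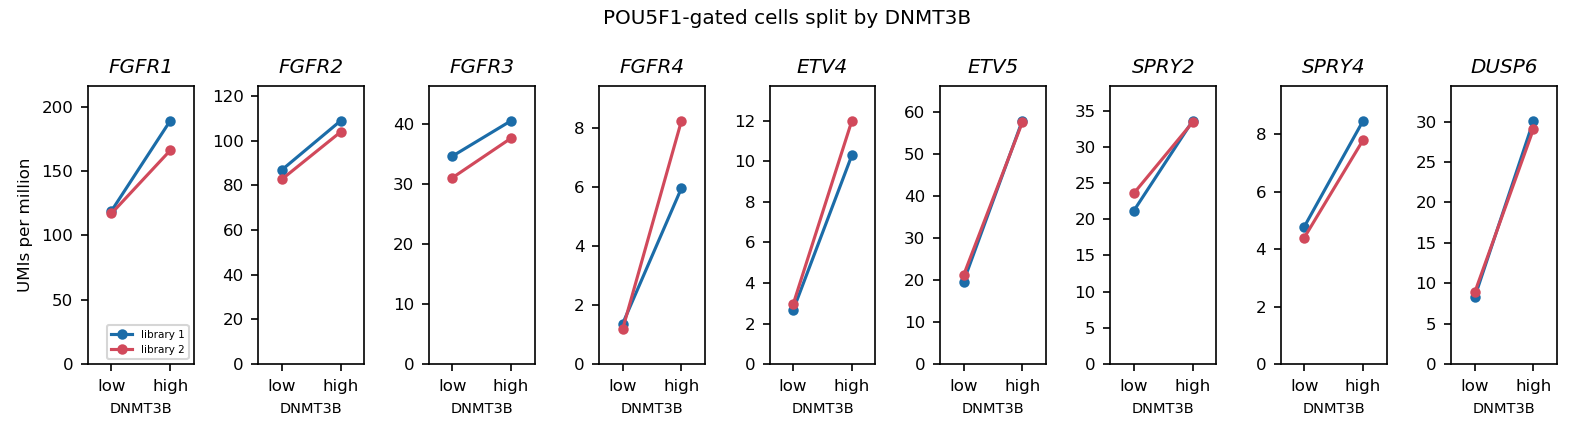
Level in CPM (vertical axes, from 0, different for each gene) in *POU5F1*-gated cells low and high in *DNMT3B*. Lines join the groups of 1 library. The lines of *DUSP6*, *ETV4*, *ETV5* and *FGFR4* are steep in both libraries, and those of *FGFR2* and *FGFR3* shallow.

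In the splits of *GABRP* and *COL3A1*, fewer of all genes were called than in that of *POU5F1*, and 2 and 1 of the 9 members. Each split of another gate took at least 3 UMIs and 500 CPM of the splitting gene. In the *GABRP* gate, 272 cells were high in *TAC3*, a tachykinin gene, and 13.4% of all genes were called between these and the other *GABRP* cells. *FGFR1* was at 15.7 and 13.0 CPM in the *TAC3*-high cells and 32.8 and 28.9 in the rest (2-fold lower, adjusted p = 1.9e-04). *DUSP6* went the other way, with 12.0 and 10.5 CPM against 6.53 and 7.13 (0.82 ± 0.19, adjusted p = 0.0066). *FGFR1* was not called when the gate thresholds were multiplied by 2 (-0.63, adjusted p = 0.077). *FGFR2* (-0.26 ± 0.11, adjusted p = 0.14) was called in 4 alternatives, among them with the library as a block (-0.27, adjusted p = 0.041). *SPRY4* (-3.01 ± 1.16, adjusted p = 0.10) was called in 1 alternative, and had only 1 and 0 UMIs in the *TAC3*-high cells. The *TAC3*-high cells were also shallower, with medians of 22665 and 20919 UMIs against 28211 and 24533.5. Markers of other cells moved with the split. Of 7 mesenchyme markers 4 were higher and 1 lower, with 248 and 254 CPM in sum against 142 and 90.4, of 6 pluripotency markers 4 were lower, with 51.0 and 45.9 CPM against 87.9 and 96.4, and of 5 amnion markers 3 were higher. No marker of these 3 lists was at 0, and the part of depth and of the markers in the member differences was not tested.

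In the *COL3A1* gate, 97 cells were high in *MYL7*, an atrial myosin light chain gene, and 1.47% of all genes were called. Of the members only *DUSP6* was, with 85.6 and 111 CPM in *MYL7*-high cells and 51.6 and 52.2 in the rest (0.90 ± 0.12, adjusted p = 4.6e-04). No member was lower by edgeR or DESeq2, and 1, *FGFR1*, was lower at an unadjusted p below 0.05. Hypoblast markers summed to 458 and 408 CPM in the *MYL7*-high cells against 317 and 332, with *GATA4* higher, and trophectoderm markers to 2621 and 2472 CPM against 3838 and 3669, with *KRT8* lower. Most of the trophectoderm sum was *KRT8*, at 3629 and 3472 CPM of 3713 and 3548 in the whole gate. *CDX2*, *GATA2*, *GATA3*, *ELF5* and *TFAP2C* were not called. Of the mesenchyme markers *TWIST1* was higher and *LUM* lower. No trophectoderm or mesenchyme marker was at 0, and 2 of the 5 hypoblast markers were at 0 in the *MYL7*-high cells. The part of these markers in the *DUSP6* difference was not tested. The *CRABP1* gate was not compared within itself, because only 12 of its cells were high in *SCRG1*.

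Cells past no gate had intermediate levels. *FGFR1* was at 91.5 and 80.9 CPM in them, *FGFR2* at 91.4 and 87.1, *ETV5* at 12.9 and 14.1, *DUSP6* at 11.9 and 10.3 and *SPRY2* at 22.8 and 24.6. Their *FGFR1* and *FGFR2* levels were thus near equal shares of receptor UMIs, 44.8% and 42.8% for *FGFR1*, between the *POU5F1* and *COL3A1* gates.

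Other genes of the pathway were read from lists of ligands, co-receptors and binders, the signal chain, and further feedback genes and targets. The FGF ligand list also holds *FGF11*, *FGF12*, *FGF13* and *FGF14*, whose proteins are intracellular, and they are counted here. Of this list, 9 of 16 genes tested were higher in *CRABP1* and none was lower (1 was at an unadjusted p below 0.05, and none by DESeq2), with a median of 1.12 against -0.01 over all genes, of which 22.0% were higher and 23.2% lower. In *GABRP* 1 gene of the list was higher and 8 were lower (median -0.68, against 30.6% and 27.0% of all genes), in *POU5F1* 6 and 7 (median -0.63, against 27.9% and 29.4%), in *TP63* 5 and 4 (median 0.01, against 23.8% and 21.4%) and in *COL3A1* 5 and 6 (median -0.14, against 27.4% and 27.1%). *FGF8* and *FGF17*, secreted ligands of the early forebrain and midbrain-hindbrain border, stood out in *CRABP1*. *FGF8* was at 89.0 and 123 CPM in *CRABP1*, against 13.3 and 15.3 in *TP63*, the next gate, and 22.0 and 24.3 in the empty droplets (3.90 ± 0.12 against the mean of the others, adjusted p = 1.0e-10). *FGF17* was at 19.6 and 29.8 CPM in *CRABP1* and at most 2.03 in any other gate (4.74 ± 0.25, adjusted p = 1.1e-08). *FGF14* was also higher in *CRABP1* (1.70 ± 0.13), but like *FGF12* and *FGF13* it encodes an intracellular protein that does not act through FGF receptors. In *COL3A1*, *FGF12* (-2.40 ± 0.11) and *FGF8* (-2.02 ± 0.24) were lower. *FGF7*, a ligand of the epithelial form of *FGFR2*, named here after its values were seen, was at 8.62 and 10.4 CPM in *COL3A1* and at most 1.12 CPM in the other gates.

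Of 15 co-receptors and binders tested, 10 were higher and 3 lower in *COL3A1* (median 0.83), where 27.4% and 27.1% of all genes were, and 10 were higher and 1 lower in *CRABP1* (median 0.82, against 22.0% and 23.2%). In *GABRP* 3 were higher and 9 lower (median -0.74, against 30.6% and 27.0%), and in *TP63* 2 were higher and 8 lower (median -0.58, against 23.8% and 21.4%). In *COL3A1* the largest changes were in *FLRT2*, a membrane protein that binds FGF receptors, at 248 and 216 CPM (3.75 ± 0.13), and in *FGFRL1*, a receptor-like protein without a kinase domain, at 15.8 and 16.5 CPM (2.55 ± 0.12). *SDC4*, a heparan sulfate proteoglycan, was lower there (-1.92 ± 0.13). In *CRABP1* they were *CDH2*, N-cadherin, at 516 and 502 CPM (3.28 ± 0.05), *FLRT2* (2.30 ± 0.14) and *NCAM1* (1.79 ± 0.09). *CDH2* was lower in *GABRP* (-2.64 ± 0.08) and *TP63* (-1.96 ± 0.06), and *SDC1* in *TP63* (-2.35 ± 0.09). In *POU5F1*, 6 were higher and 7 lower (median -0.02, against 27.9% and 29.4% of all genes), among the latter *FLRT2* (-2.31 ± 0.17), *SDC2* (-1.72 ± 0.07) and *FLRT3* (-1.53 ± 0.07).

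All 19 genes of the signal chain, from the adaptors to ERK, were tested. In *POU5F1* 3 were higher and 5 lower, in *CRABP1* 4 and 7, in *GABRP* 8 and 3, in *TP63* 7 and 3 and in *COL3A1* 2 and 8, with calls in both directions in each gate and medians between -0.11 and 0.10. The shares over all genes are those given above for each gate. Of those at 10 CPM or more in a gate, *GAB1*, an adaptor, and *ARAF*, a RAF kinase, were the genes that changed by more than 1 on the log2 scale. *GAB1* was lower in *POU5F1* (-1.56 ± 0.07) and higher in *COL3A1* (1.22 ± 0.06), and *ARAF* was higher in *GABRP* (1.24 ± 0.06).

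Further feedback genes and targets were called in both directions in each gate, with medians between -0.15 and 0.18. Of 19 tested, 7 were higher and 8 lower in *POU5F1* (27.9% and 29.4% of all genes), 7 and 7 in *CRABP1* (22.0% and 23.2%), 9 and 6 in *GABRP* (30.6% and 27.0%), 6 and 9 in *TP63* (23.8% and 21.4%), and 9 and 8 in *COL3A1* (27.4% and 27.1%). *ETV1*, the other member of the *ETV4* and *ETV5* family, was higher in *POU5F1* (1.97 ± 0.12) and lower in *GABRP* (-1.82 ± 0.22) and *TP63* (-1.87 ± 0.18). *DUSP4*, a nuclear ERK phosphatase, was higher in *POU5F1* (1.65 ± 0.07) and *CRABP1* (1.30 ± 0.09) and lower in *TP63* (-1.40 ± 0.09). *IER3* was lower in *POU5F1* (-1.76 ± 0.07). *SPRY1* (1.95 ± 0.07) and *IL17RD*, a membrane inhibitor of FGF signalling (1.93 ± 0.06), were higher in *CRABP1*. In *GABRP*, where 8 members were lower, the feedback phosphatase gene *DUSP5* (1.66 ± 0.05, 123 and 130 CPM against 66.5 and 62.3 in the empty droplets) and *IER3* (1.75 ± 0.06) were higher. In *COL3A1*, *MYC* was higher (2.10 ± 0.08), and *IL17RD* (-1.62 ± 0.08) and *DUSP14* (-1.61 ± 0.10) were lower.

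The genes most like each member were sought by Pearson's r of log2(CPM + 1) over the 10 sums among 9570 genes with a mean of at least 10 CPM. The 10 sums are 5 gates in 2 libraries, share depth and library, and give many genes with a high r, so these values are a description. *FGFR1* was most like *CCNB2* (0.993), *FGFR2* like *NFIB* (0.977) and *FGFR4* like *EIF4E2* (0.988). *ETV4* was most like *DUSP4* (0.989), followed by *CMC1* (0.986) and *GPC4* (0.985). *DUSP4* and *GPC4*, a glypican, are in the pathway lists. *ETV5* was most like *ANK2* (0.990), *SPRY4* like *PALM* (0.987), *SPRY2* like the proteoglycan gene *SDC3* (0.991) and *DUSP6* like *NOL4L* (0.993). Among the members, *ETV5* and *SPRY4* had an r of 0.98 and *SPRY2* and *DUSP6* of 0.96, while *ETV5* and *DUSP6* had 0.46. *FGFR2* and *FGFR3* had -0.75.

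In pESCs, levels are in FPKM, which is scaled by transcript length, so genes can be compared. The number of reads is not given, so the error is the SD over 3 libraries, with the columns named IVFP25, PA_4P7 and PAP25. The first of these names begins with IVF, which does not match the stated parthenogenetic origin, and whether the libraries share 1 origin is not known. *FGFR1* was the most abundant member at 85.1, 66.0 and 99.9 FPKM in this order (83.7 ± 17.0, SD, n = 3), and *FGFR2* had 29.5, 30.2 and 35.7 FPKM (31.8 ± 3.41). *FGFR3* had 19.6, 21.9 and 25.6 FPKM (22.4 ± 3.03) and *FGFR4* 5.59, 6.08 and 4.48 (5.38 ± 0.821). The order *FGFR1*, *FGFR2*, *FGFR3*, *FGFR4* held in each library with no overlap between them. *FGFR1* made up 60.9%, 53.1% and 60.3% of the FPKM of the 4 receptors. *FGFR3* was spread over 11 annotated transcripts, of which the highest held 39.1% of its FPKM.

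*DUSP6* was the highest of the induced members, at 32.6, 32.1 and 38.6 FPKM (34.5 ± 3.63), and its range overlapped that of *FGFR2*. *ETV5* had 21.6, 20.3 and 22.8 FPKM (21.6 ± 1.22) and *ETV4* 17.8, 18.7 and 23.3 (19.9 ± 2.93). The ranges of *ETV4* and *ETV5* overlapped. *SPRY2* was at 11.4, 16.7 and 15.1 FPKM (14.4 ± 2.76), and *SPRY4* at 2.52, 2.89 and 4.26 (3.23 ± 0.915), 4.52-fold lower by the geometric mean of the ratios. *FGF4* had 2.14, 2.34 and 1.57 FPKM (2.02 ± 0.395), at the 44.5 percentile of all genes above 0, where *FGFR1* was at the 95.9 percentile. Among genes with at least 1 FPKM these percentiles were 11.7 and 93.5. FPKM summed to between 401872 and 424076 per library, and rescaling each library to a sum of 1000000 raised the means of all 10 genes, that of *FGF4* to 4.87. No test was made, since the libraries form 1 group.

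**Figure D5:**
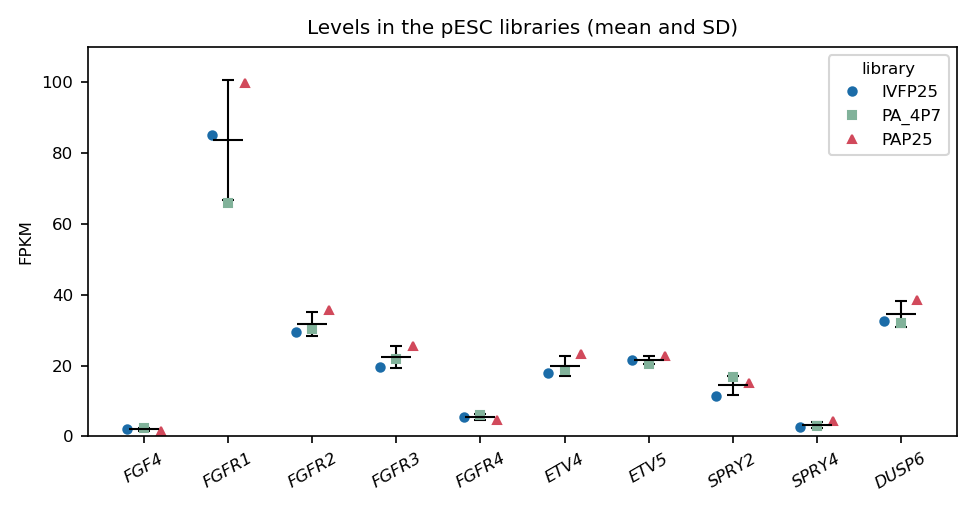
FPKM of the 10 genes (vertical axis, from 0) in 3 pESC libraries. Symbols are the libraries, and black bars the mean and SD. *FGFR1* stands above all others in each library, and *FGF4*, *SPRY4* and *FGFR4* lie below 6.1 FPKM.

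The library PAP25 stood apart in markers of other lineages. It was the highest of the 3 for 7 of the 10 members and the lowest for *FGF4* and *FGFR4*. In the other pathway lists it was highest for 12 of 21 ligands and 13 of 18 co-receptors and binders. For the signal chain this was 6 of 19 genes, and for further feedback genes and targets 7 of 20. The share over all genes was not computed, so the count of members is a description. All 5 hypoblast markers were also highest in it, such as *FOXA2* at 81.8 FPKM against 13.2 and 15.5, and all 6 pluripotency markers were lowest. Also highest in it were 5 of 6 trophectoderm markers and 4 of 7 mesenchyme markers. For the other lists this was 2 of 7 neural, 1 of 4 neural crest, 2 of 5 amnion and 1 of 4 surface ectoderm markers. The part of these markers in the member levels was not tested. Of fibroblast markers, *COL3A1* was at most 0.0182 FPKM and *COL1A1* at 4.00 FPKM on average. Whether reads of the mouse feeder cells were removed is not given in the sources used here. Of 21 other genes of the FGF ligand list, 6 had at least 1 FPKM in each library. Among these were *FGF11*, *FGF12* and *FGF13*, which encode intracellular proteins. The highest of the 6, *FGF19*, was picked after its values were seen, at 8.50, 9.81 and 5.56 FPKM. All 19 genes of the signal chain reached 1 FPKM, as did 12 of 18 co-receptors and binders and 16 of 20 further feedback genes and targets.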

How the data were processed

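For the blastoids, the authors deposited raw UMI counts per gene and barcode, made with Cell Ranger 7.1.0 on susScr11 per the labels. Whether intronic reads were counted is not given in the sources used here. For pESCs, reads were trimmed with Trim Galore 0.6.4 and mapped with HISAT2 2.2.1, and the authors deposited FPKM per transcript from StringTie 2.2.1. The paper and the labels name different kits and sequencers for these libraries.

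Barcodes with at least 11223 UMIs in library 1 (7369 cells) and 9807 in library 2 (8175 cells) were kept as cells, a limit set from the most deeply sequenced barcodes, with no mitochondrial or doublet filter. Scrublet (scanpy 1.11.5) marked 1 and 0 cells by its automatic threshold, so the 434 and 535 cells with the highest scores were removed in an alternative. Cells held 254038630 and 264987746 UMIs in all. Counts were summed per library and gate. Genes kept by filterByExpr (17091) were scaled by TMM, and a single edgeR 4.0.16 quasi-likelihood fit in R 4.3.3 held all 5 gates, with p-values adjusted over all genes by Benjamini-Hochberg. Parts of gates were fitted likewise (16446 genes). DESeq2 1.42.0, other scalings, filters and gate thresholds were alternatives. The limit given for a count of 0 is 3 counts per library, and covers counting error only.

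The gates of a library come from the same 10x sample, so the library pairs the sums. Deviations from the gate means correlated between gates at 0.0543 to 0.262 across 17091 genes. The main model had no block, and the blocked value is given where it changed a call. In counts simulated for *COL3A1* against the other gates, with 16505 genes tested, 41 of 50 genes raised 2-fold, 50 of 50 raised 4-fold, 42 of 49 lowered 2-fold and 46 of 50 lowered 4-fold were recovered, and 8 of 16306 other genes were called. The simulation gave every gene the common dispersion of 0.0033, all gates the same profile apart from the changed genes, and no library effect. The real sums differ in all of these, so its rates do not carry over to them.

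FPKM were added up per gene symbol. The pESC columns could not be tied to single samples and were used as 3 libraries of 1 group. Of the gene names, 29862 (99.4%) matched RefSeq. The genes, gates and lists were chosen with earlier results of these data known. List genes named are, per list and gate, up to 3 with the largest change among those with an adjusted p below 0.05, a log2 fold change of at least 1 and at least 10 CPM in a gate, and all others named are said to be chosen after their values were seen. Some items are not reported here. Embryo libraries and images were not analysed here.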

Additional observations from a re-analysis of the deposited data

How the results depend on the processing

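The counts of members called in each gate against the others, and of member values called between pairs of gates, stayed within 1.5 times the main count under every alternative run. Leaving out a library leaves no spread within a gate, so it gives values and no calls. Of all genes, the *TAC3* split of the *GABRP* gate gave 3330 calls with gate thresholds divided by 2 and 1105 with thresholds multiplied by 2, against 2208, and 4 members without the filter on low counts, against 2. The *MYL7* split gave 594 genes without that filter and 405 with thresholds divided by 2, against 242. In these splits 15 member values were not called, of which 10 had the other sign in at least 1 alternative and 2 were called in at least 1.

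The library as a replicate block gave 10651 genes for *POU5F1*, 8298 for *CRABP1*, 10352 for *GABRP*, 8846 for *TP63* and 9813 for *COL3A1*, and changed no member call other than those given above and *FGFR4* in *GABRP* and *TP63* against *COL3A1* (-1.62 and -1.28, adjusted p = 0.041 and 0.043). These 2 values were larger in library 2, with -2.89 and -1.94 from it alone and -0.55 and -0.53 from library 1 alone.

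No called member turned its direction. *SPRY2* in *POU5F1*, not called, was called lower with thresholds divided by 2 (-0.25, adjusted p = 0.025). Of those not called, *DUSP6* in *POU5F1* was 0.01 with total UMIs only and 0.12 with thresholds multiplied by 2. *FGFR2* in *GABRP* was 0.25 with cells past several gates counted in each. *FGFR4* in *COL3A1* was -0.01 with total UMIs only, -0.15 with thresholds divided by 2 and -0.35 with cells of several gates counted in each. Between gates, *FGFR1* in *POU5F1* against *CRABP1* was -0.02 with total UMIs only, *FGFR4* in *GABRP* against *TP63* was 0.63 with thresholds divided by 2 and 0.23 with cells of several gates, and *ETV4* in *GABRP* against *COL3A1* was -0.04, -0.07, -0.31 and -0.18 with total UMIs, thresholds divided by 2, multiplied by 2 and cells of several gates. The cause was not tested. Of the 90 member values between pairs of gates, 7 that were called lost the call in at least 1 alternative, and 7 that were not called gained it. The calls of *FGFR4* in *GABRP* and *TP63* and of *ETV4* in *COL3A1* were lost under a changed threshold, *FGFR4* in *GABRP* at -0.93 against -1.97 (adjusted p = 0.065), *FGFR4* in *TP63* at -1.47 against -1.55 (adjusted p = 0.10) and *ETV4* in *COL3A1* at -0.54 against -0.99 (adjusted p = 0.18). *FGFR4*, *ETV4* and *SPRY4* rest on 441, 846 and 1089 UMIs over all gates, which limits what can be seen for them.

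In pESCs, the highest transcript alone gave 9.91 FPKM for *FGFR3*, 9.95 for *ETV4* and 12.8 for *ETV5*.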
